A study of Mus musculus with 12 samples.

Results

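The genes of cadherin-based adhesion described here were the classical cadherins Cdh2, Cdh3 and Cdh11, the atypical cadherins Fat1, Pcdh18 and Clstn1, the catenins Ctnnb1, Ctnna1 and Ctnnd1, and Ssx2ip. They were chosen by name with earlier results of these data known, so their levels and counts of calls may partly follow from that choice. They are 10 of 17576 genes in the table, and all 10 passed the filter on low values (a level of at least 1 in at least 3 libraries, 11360 genes). The samples were 12 RNA libraries of C18-4 cells, an immortalised line made from mouse spermatogonia and labelled as IRC mouse, with 3 libraries in each of 4 groups. In 8276OV the cells received virus for overexpression of the long noncoding RNA lncRNA8276, and in 8276KD virus for its inhibition. The groups 5NC and 3NC were taken as the control viruses of 8276OV and 8276KD, since the design names them in these pairs, and the labels do not define them further. All 4 groups share the line and, as the design text describes it, transfection with virus. No label or design text used here gives the kind of virus, its promoter or the time of harvest. None says that replicates are separate cultures, so the spread behind each p-value may be technical only. The level of lncRNA8276 was not analysed here.

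Classical cadherins are calcium-dependent receptors that bind the same cadherin on a neighbouring cell through their outer domains. Their inner tails bind β-catenin (Ctnnb1) and p120-catenin (Ctnnd1), and α-catenin (Ctnna1) links β-catenin to actin filaments. Free β-catenin also acts in the nucleus as a coactivator of TCF and LEF factors in Wnt signalling. In the testis, N-cadherin (Cdh2) is known from the junctions of Sertoli cells with each other and with germ cells.

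The start regions of 3 of these genes are shown, chosen among the 6 members whose windows were used here. Of these 6, Pcdh18 varied the most between groups and Ctnnb1 the least, while Ssx2ip lay between them and had the largest rise under knockdown. Each window holds 250 bases before and 50 bases after the start, 5′ to 3′ on the gene's strand, from RefSeq on GRCm38.p6, the same assembly as mm10, and gene coordinates below come from the same annotation. Capitals mark GGGCGG, the box of Sp1 and KLF factors, and CACCTG, the E-box of Snail and Zeb repressors, on either strand.
Pcdh18, chr3:49757267-49757566, strand minus: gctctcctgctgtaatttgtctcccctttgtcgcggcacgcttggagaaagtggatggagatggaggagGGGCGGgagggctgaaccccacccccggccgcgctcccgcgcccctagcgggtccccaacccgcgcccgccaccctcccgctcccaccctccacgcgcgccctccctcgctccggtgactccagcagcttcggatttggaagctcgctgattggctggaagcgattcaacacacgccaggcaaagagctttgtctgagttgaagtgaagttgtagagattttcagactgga
Ctnnb1, chr9:120933150-120933449, strand plus: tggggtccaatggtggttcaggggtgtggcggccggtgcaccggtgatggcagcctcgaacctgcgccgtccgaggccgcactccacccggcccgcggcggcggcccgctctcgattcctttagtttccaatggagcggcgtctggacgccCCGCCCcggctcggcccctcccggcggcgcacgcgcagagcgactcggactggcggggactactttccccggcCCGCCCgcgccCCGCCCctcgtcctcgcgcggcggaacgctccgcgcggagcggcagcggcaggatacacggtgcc
Ssx2ip, chr3:146404392-146404691, strand plus: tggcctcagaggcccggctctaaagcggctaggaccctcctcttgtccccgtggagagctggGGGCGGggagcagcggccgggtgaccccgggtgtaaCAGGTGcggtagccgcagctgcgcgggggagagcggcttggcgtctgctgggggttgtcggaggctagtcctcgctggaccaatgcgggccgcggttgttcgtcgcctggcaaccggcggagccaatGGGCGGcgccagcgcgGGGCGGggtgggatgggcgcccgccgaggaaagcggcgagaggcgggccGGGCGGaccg

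GGGCGG occurred 1 time in the Pcdh18 window, 3 times in that of Ctnnb1 and 4 times in that of Ssx2ip, and 35.7% of all 32851 RefSeq windows of this length hold it. CACCTG occurred 1 time, in the Ssx2ip window, against 20.2% of all windows. The TCF and LEF core CTTTGA (16.00% of all windows) and the AP-1 site TGANTCA (7.81%) were not found in these 3 windows, which says only that these letters are not there. The windows hold 63.00%, 75.3% and 74.00% G and C in the order shown. A second listed start of Ctnnb1 has a window, chr9:120933328-120933627, that is not shown and also holds GGGCGG 3 times.

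Levels are FPKM, fragments per kilobase of transcript scaled to the size of the library, so levels of different genes can be compared per length. The depth is unknown, because low values did not fall on steps of whole fragments (in the library nearest to that, 60.1% lay within 0.15 of a whole number). Log2 differences are differences of log2(FPKM + 1) from limma fitted on all genes. Pearson's r between libraries ranged from 0.993 to 0.998 within groups. Differences between 8276OV and 5NC followed the GC content of transcripts, with a median of 0.39 among genes of bin 1, the poorest of 10 bins in G and C, and -0.66 in bin 10, and of 0.082 and -0.10 for 8276KD against 3NC. Values after removal of this trend are given beside the results that follow where they change a call under overexpression or knockdown. The GC trend was weaker in 8276OV replicate 2 than in the other 8276OV libraries (slope -0.237 per 10 points of GC content against -0.462 and -0.355), and 8276KD replicate 2 stood at 0.184 against -0.0402 and -0.00192. With either of these libraries left out, all members called in their comparison kept direction and call except Clstn1 under knockdown. Of 21 markers of spermatogonia and germ cells, 14 stayed below 1 in every library, among them Gfra1, Ret and Zbtb16. Others were expressed, with Uchl1 at 73.00 to 139.2, Tex19.1 at 55.8 to 124.8, Pou3f1 at 3.32 to 11.99 and Etv5 at 2.26 to 7.89 over the 12 libraries. Over all 21 markers the sum was 196.4 to 204.5 in 3NC and 244.6 to 285.9 in 8276KD. It was 179.8 to 192.7 in 5NC and 144.8 to 165.5 in 8276OV. Uchl1 and Tex19.1 were its largest parts.

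When lncRNA8276 was overexpressed, Cdh2 and Ctnna1 rose against either control virus and after GC correction. Cdh3, Fat1 and Clstn1 fell against 5NC, but all 3 had the opposite sign against 3NC, and the fall of Clstn1 was not called after GC correction. When lncRNA8276 was knocked down, Cdh3 and Fat1 fell against either control virus. Ssx2ip rose and Cdh11 fell against 3NC, and neither was called against 5NC. Among the 3 comparisons of 8276OV against 5NC, 8276KD against 3NC and 5NC against 3NC, the widest difference of a member was that of Cdh3 between the control viruses, and Cdh2 and Pcdh18 were also higher in 5NC than in 3NC. Under overexpression 3 of 10 members rose (30.3% of all genes tested did), 5 fell (44.1%) and 2 were not called, so with 74.4% of all genes called a count of 8 is near that background. Under knockdown 3 rose (20% of all genes), 4 fell (19.5%) and 3 were not called, where 39.4% of all genes were called. The 3 that rose became 1 with quantile normalization and without 3NC replicate 1, 2 or 3 or 8276KD replicate 1 or 3, when Clstn1 and Ctnna1 lost their calls. Between the control viruses 7 were higher in 5NC (30.6% of all genes), 2 were lower (25.9%) and 1 was not called, where 56.5% of all genes were called. The 2 lower became 1, Cdh11, without 3NC replicate 1 or 2 or 5NC replicate 1 or 3. The 5 that fell under overexpression became 3 with median-of-ratios scaling. After GC correction 2 members rose (27.8% of all genes) and 4 fell (27%) under overexpression, where 54.8% of all genes were called. Under knockdown 3 rose (25.3%) and 4 fell (23.1%) after GC correction, with 48.4% of all genes called, and 7 were higher (31.2%) and 2 lower (33.3%) in 5NC, with 64.5% called. The median log2 difference of the 10 members was 0.49 between the control viruses (0.022 over all genes), -0.054 under overexpression (-0.088 over all genes) and -0.085 under knockdown (-0.0048 over all genes). Quantile normalization moved the median over all genes under overexpression from -0.088 to 0.029, so changes of members of about this size are relative to the scaling. The comparison of the control viruses shares its libraries with both others. In these bulk samples, fewer cells of a type and less RNA per cell cannot be told apart.

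**Figure D1:**
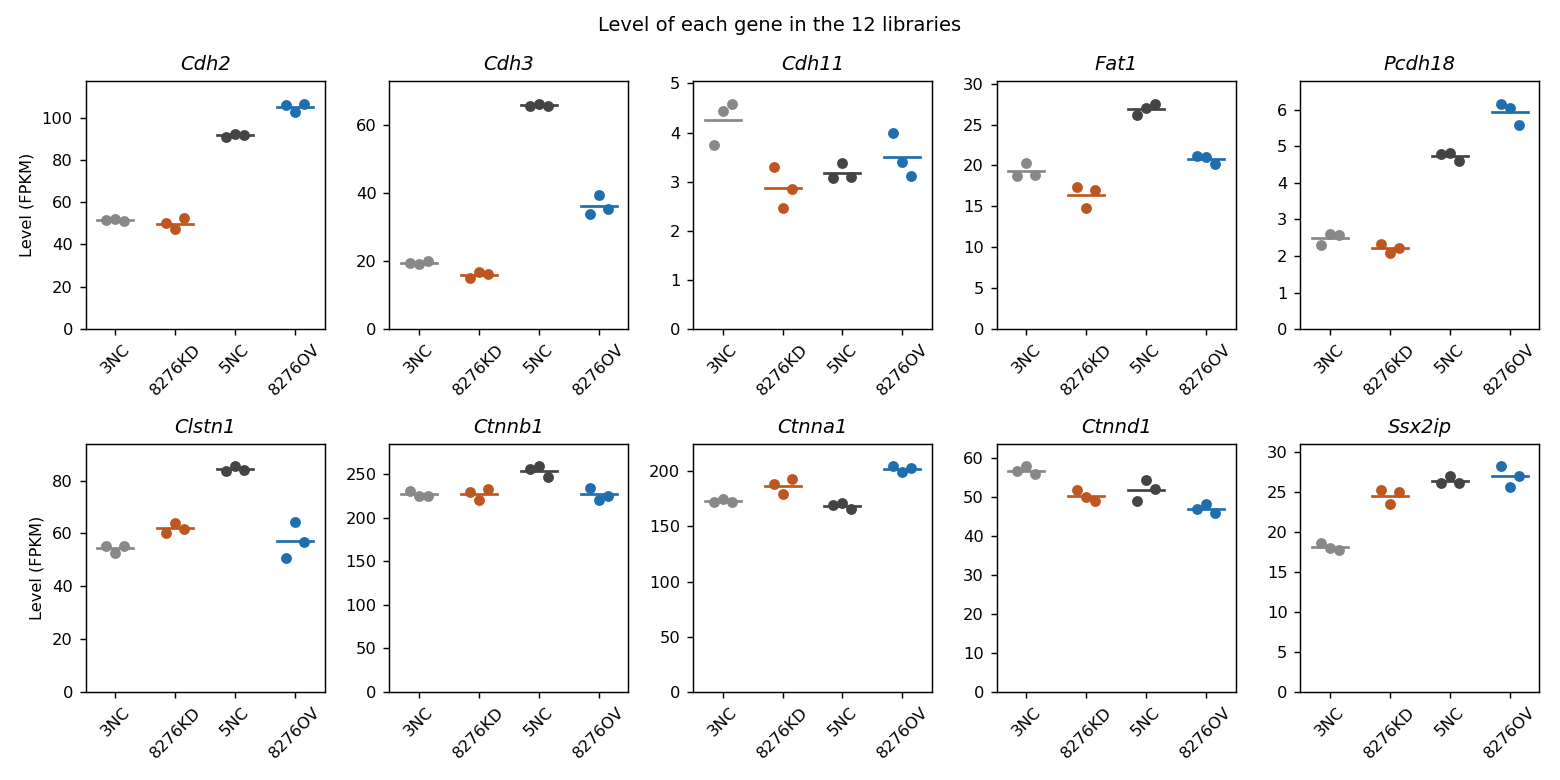
Level (FPKM, from 0) of each of the 10 genes in every library, with points for the 3 libraries of a group and a line for their mean, and groups ordered as 3NC, 8276KD, 5NC and 8276OV. Cdh2 and Pcdh18 are low in 3NC and 8276KD and high in 5NC and 8276OV, while Cdh3 is highest in 5NC, at 65.5 to 66.3.

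Transcripts of N-cadherin and P-cadherin moved apart under overexpression against 5NC, but both were higher in 8276OV than in 3NC. Cdh2, the N-cadherin gene (gene ID 12558, chromosome 18, 16588877 to 16809246), stood at 51.8, 52.2 and 50.98 in 3NC, 50.1, 47.2 and 52.3 in 8276KD, 90.98, 92.1 and 91.8 in 5NC and 105.8, 102.6 and 106.6 in 8276OV. The 3 libraries of 8276OV lay above all others and those of 5NC above both groups of the knockdown arm, in which 3NC and 8276KD overlapped. Cdh2 rose under overexpression from 91.6 ± 0.595 to 105.0 ± 2.14 (SD, n = 3; log2 difference 0.19, SE 0.0426, adjusted p = 9.64e-04), a ratio of 1.15. Under knockdown its difference was -0.051 (95% interval -0.14 to 0.041, adjusted p = 0.366). Between the control viruses it was 1.77-fold higher in 5NC (log2 difference 0.81, SE 0.0426, adjusted p = 3.00e-09). Against the other control, the log2 difference was 1.01, adjusted p = 3.51e-10 for 8276OV and -0.87, adjusted p = 3.40e-09 for 8276KD.

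Cdh3, the P-cadherin gene of epithelial and placental cells (gene ID 12560, chromosome 8, 106510852 to 106556911), stood at 19.5, 19.2 and 19.9 in 3NC, 15.1, 16.8 and 16.2 in 8276KD, 65.5, 66.3 and 65.5 in 5NC and 33.7, 39.4 and 35.4 in 8276OV. No groups overlapped, and their order from low to high was 8276KD, 3NC, 8276OV and 5NC. Cdh3 fell under overexpression from 65.8 ± 0.453 to 36.1 ± 2.89 (log2 difference -0.85, SE 0.0573, adjusted p = 1.15e-07), and by 0.62 after GC correction (adjusted p = 1.59e-08). It also fell under knockdown, from 19.5 ± 0.335 to 16.02 ± 0.878 (log2 difference -0.27, SE 0.0573, adjusted p = 0.00217). The control viruses differed by more than either manipulation changed it, with a 3.37-fold higher level in 5NC (log2 difference 1.70, SE 0.0573, adjusted p = 4.47e-11). The direction under overexpression turned with the control: against 3NC, 8276OV was higher by 0.85, adjusted p = 2.63e-08. Against 5NC, the 8276KD difference was -1.97, adjusted p = 9.00e-11.

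Cdh11, the cadherin of mesenchymal cells and osteoblasts (gene ID 12552, chromosome 8, 102632095 to 102785493), was the lowest of these 3 cadherins per length, at 3.75, 4.44 and 4.59 in 3NC, 3.29, 2.46 and 2.86 in 8276KD, 3.07, 3.39 and 3.09 in 5NC and 4.00, 3.41 and 3.11 in 8276OV. The 3NC libraries were the highest as a group and lay above those of 8276KD and 5NC, while 8276OV overlapped all other groups. Cdh11 fell under knockdown from 4.26 ± 0.448 to 2.87 ± 0.415 (log2 difference -0.44, SE 0.096, adjusted p = 0.00255), and the call was lost against 5NC (-0.12, adjusted p = 0.319). It was lower in 5NC than in 3NC (log2 difference -0.33, SE 0.096, adjusted p = 0.0102). Under overexpression the difference was 0.10 (95% interval -0.10 to 0.31, adjusted p = 0.34), called with quantile normalization (0.25, adjusted p = 0.036) and of the opposite sign against 3NC (-0.22, adjusted p = 0.0475).

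The summed level of the members Cdh2, Cdh3 and Cdh11, which leaves out the other expressed cadherins Cdh10 and Cdh24, was 75.5 ± 0.435 in 3NC, 68.8 ± 2.52 in 8276KD, 160.6 ± 1.14 in 5NC and 144.7 ± 0.96 in 8276OV (SD, n = 3). The sum of every library of the overexpression arm exceeded that of every library of the knockdown arm. Cdh3 made up 40.97 ± 0.112% of this sum in 5NC, but 24.98 ± 1.87% in 8276OV, 25.9 ± 0.511% in 3NC and 23.3 ± 1.69% in 8276KD. The 3 libraries of 5NC lay at 40.8 to 41.1%, above all other libraries at 21.99 to 27.1%. These sums are descriptions of the chosen genes and were not tested. After GC correction the share of Cdh3 was 39.9% in 5NC and 26.7% in 8276OV.

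**Figure D2:**
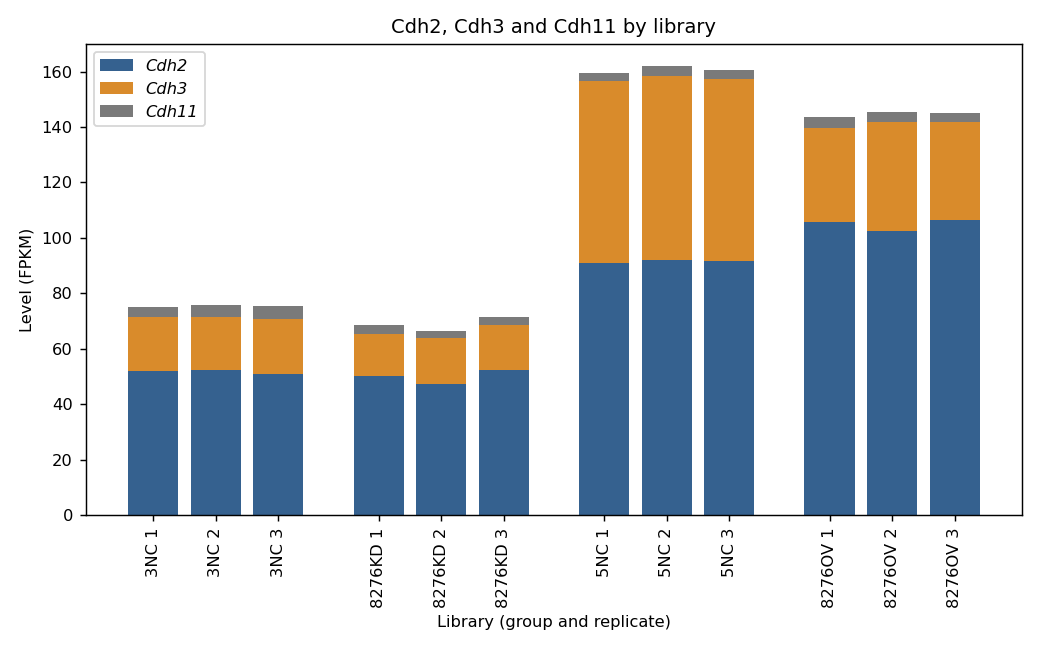
Stacked levels (FPKM, from 0) of Cdh2, Cdh3 and Cdh11 in each library, 1 bar per library. The bars of 5NC and 8276OV are taller than those of 3NC and 8276KD, and the Cdh3 segment is largest in 5NC.

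The summed level of mesothelial and epithelial markers was highest in 5NC, with Upk3b as the marker whose mean differed most between groups in FPKM. As a ratio Lrrn4 differed more, with means of 1.21 in 3NC and 8.63 in 5NC. Over 7 mesothelial and epithelial markers, 6 of which reached 1 in every library, the summed level was 629.6 to 645.0 in 3NC, 831.1 to 966.9 in 8276KD, 1156.6 to 1175.0 in 5NC and 746.3 to 879.0 in 8276OV. Upk3b had mean levels of 239.6 in 3NC, 386.8 in 8276KD, 791.5 in 5NC and 493.0 in 8276OV. Msln and Lrrn4 also had their highest mean in 5NC, while Krt8, Krt18 and Krt19 had theirs in 8276KD, with Krt19 at 250.2 in 3NC, 332.6 in 8276KD, 211.8 in 5NC and 193.3 in 8276OV. Over 8 fibroblast markers, 4 of which reached 1 in every library, the sum was 802.4 to 844.2 in 3NC, 753.5 to 871.1 in 8276KD, 1023.0 to 1068.8 in 5NC and 827.6 to 916.2 in 8276OV. Of these 4, Col1a1 and Vim had their highest mean in 5NC, Dcn in 8276OV and Fn1 in 3NC. The sum of 8 peritubular myoid markers was 411.2 to 423.4 in 3NC, 402.7 to 408.2 in 8276KD, 393.8 to 406.3 in 5NC and 399.4 to 413.0 in 8276OV. Cald1 was the largest part of it, with means of 283.4, 279.2, 257.9 and 299.5 in the same order. Myh11 and Actg2 stayed below 1 in every library. Acta2 and Tagln had their highest mean in 5NC, Des and Tpm2 in 3NC, and Cnn1 in 8276KD. The sum of 9 Sertoli markers was 62.2 to 64.3, 69.5 to 76.0, 67.8 to 69.8 and 58.8 to 61.1 in the same order. Wt1 was the largest part of that sum, with means of 50.3, 60.8, 52.3 and 49.7. Of the 9 markers, 4 stayed below 1 in every library, Sox9 and Amh among them. The part of these markers in the cadherin differences was not tested. All 5 endothelial markers, Cdh5 among them, stayed below 1 in every library, as did 3 of 4 macrophage markers. Cdh1, the E-cadherin gene of undifferentiated spermatogonia and epithelia, reached no more than 0.07.

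The atypical cadherins did not move as a group. Fat1, a giant cadherin that acts in cell polarity and actin organisation (gene ID 14107, chromosome 8, 44933100 to 45052257), stood at 18.8, 20.3 and 18.9 in 3NC, 17.3, 14.7 and 16.98 in 8276KD, 26.1, 27.00 and 27.6 in 5NC and 21.1, 21.1 and 20.1 in 8276OV. The 5NC libraries were the highest and those of 8276KD the lowest, and 3NC and 8276OV overlapped. Fat1 fell under overexpression (log2 difference -0.36, SE 0.0608, adjusted p = 1.24e-04) and under knockdown (log2 difference -0.23, SE 0.0608, adjusted p = 0.00903), and was higher in 5NC than in 3NC (log2 difference 0.46, SE 0.0608, adjusted p = 2.58e-05). After GC correction the fall under overexpression was smaller (-0.18, SE 0.0627, adjusted p = 0.0261). Against 3NC, 8276OV had the opposite sign (0.10, adjusted p = 0.148).

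Pcdh18, a protocadherin of the δ class (gene ID 73173, chromosome 3, 49743291 to 49757383), was a low gene with a level of 2.30, 2.59 and 2.58 in 3NC, 2.34, 2.07 and 2.23 in 8276KD, 4.79, 4.83 and 4.60 in 5NC and 6.17, 6.05 and 5.58 in 8276OV. As for Cdh2, 8276OV was highest, 5NC lay above the knockdown arm, and 3NC and 8276KD overlapped. Pcdh18 rose under overexpression from 4.74 ± 0.123 to 5.93 ± 0.312 (log2 difference 0.27, SE 0.0647, adjusted p = 0.00176), which was not called after GC correction (0.10, SE 0.0606, adjusted p = 0.159). Under knockdown its difference was -0.12 (95% interval -0.26 to 0.020, adjusted p = 0.162). The level in 5NC was 1.90 times that in 3NC (log2 difference 0.72, SE 0.0647, adjusted p = 6.56e-07), and 8276KD lay below 5NC by a called difference (-0.84, adjusted p = 2.11e-07).

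Clstn1 encodes calsyntenin-1, a cadherin-like membrane protein that docks cargo to kinesin-1 (gene ID 65945, chromosome 4, 149585111 to 149648899). Its level was 55.3, 52.8 and 55.1 in 3NC, 60.01, 64.05 and 61.7 in 8276KD, 83.5, 85.4 and 84.05 in 5NC and 50.7, 64.3 and 56.5 in 8276OV. The 5NC libraries lay above all others, and 8276OV, the most scattered group, overlapped both groups of the knockdown arm. Clstn1 fell under overexpression from 84.3 ± 0.963 to 57.2 ± 6.82 (log2 difference -0.56, SE 0.0661, adjusted p = 5.98e-06). It was the member richest in G and C (57.6% of its longest transcript), genes of its GC bin had a median of -0.54, and after GC correction its difference was 0.010, SE 0.0387, adjusted p = 0.845. Against 3NC the difference was 0.065, adjusted p = 0.383. Under knockdown Clstn1 rose (log2 difference 0.18, SE 0.0661, adjusted p = 0.0404), but the call was lost when any of the 6 libraries was left out (adjusted p from 0.0506 to 0.124) and with quantile normalization (0.16, adjusted p = 0.051) or without the filter on low values (0.18, adjusted p = 0.072). It stood as a call after GC correction (0.27, adjusted p = 4.86e-05) and turned against 5NC (-0.44, adjusted p = 9.12e-05). Between the control viruses Clstn1 was higher in 5NC (log2 difference 0.62, SE 0.0661, adjusted p = 3.15e-06).

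Ctnnb1 and Ctnna1 were the highest members per length, and the ratio of the highest to the lowest group mean was smaller for each of the 3 catenins than for any other member. Ctnnb1, the β-catenin gene (gene ID 12387, chromosome 9, 120933400 to 120960507), stood at 230.6, 225.2 and 224.9 in 3NC, 229.3, 220.0 and 233.0 in 8276KD, 256.3, 258.9 and 246.7 in 5NC and 234.0, 220.7 and 225.1 in 8276OV. The 3 libraries of 5NC were above all others, and the other 3 groups overlapped. Ctnnb1 fell under overexpression from 254.0 ± 6.45 to 226.6 ± 6.78 (log2 difference -0.16, SE 0.0382, adjusted p = 0.00152), and was higher in 5NC than in 3NC by a like amount (log2 difference 0.16, SE 0.0382, adjusted p = 0.00269). The fall was not called after GC correction (-0.057, adjusted p = 0.216), with median-of-ratios scaling (-0.072, adjusted p = 0.114) or against 3NC (-0.0023, adjusted p = 0.959). Under knockdown the difference was 0.0032 (95% interval -0.079 to 0.085, adjusted p = 0.958), and against 5NC it was -0.16, adjusted p = 0.00317.

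Ctnna1, the αE-catenin gene (gene ID 12385, chromosome 18, 35118902 to 35254776), stood at 171.9, 174.9 and 172.5 in 3NC, 188.0, 179.2 and 192.9 in 8276KD, 169.3, 171.5 and 165.9 in 5NC and 204.5, 199.3 and 202.8 in 8276OV. The 8276OV libraries were the highest, followed by 8276KD, and both lay above their control libraries. Ctnna1 rose under overexpression from 168.9 ± 2.84 to 202.2 ± 2.65 (log2 difference 0.26, SE 0.0367, adjusted p = 2.77e-05), and stayed called after GC correction (0.31, adjusted p = 1.86e-06) and against 3NC (0.22, adjusted p = 9.16e-05). It also rose under knockdown (log2 difference 0.11, SE 0.0367, adjusted p = 0.0322), and against 5NC (0.14, adjusted p = 0.00472). The knockdown call was lost with quantile normalization (0.056, adjusted p = 0.305), in a fit of the compared groups only (0.11, adjusted p = 0.0756), and without 3NC replicate 1, 2 or 3 or 8276KD replicate 1 or 3 (adjusted p from 0.0619 to 0.131). Between the control viruses the difference was -0.035 (95% interval -0.11 to 0.044, adjusted p = 0.434).

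Ctnnd1 encodes p120-catenin, which holds cadherins at the cell surface (gene ID 12388, chromosome 2, 84587096 to 84658977). Its level was 56.6, 57.9 and 55.9 in 3NC, 51.8, 49.97 and 49.03 in 8276KD, 48.9, 54.3 and 52.1 in 5NC and 46.9, 48.3 and 45.8 in 8276OV. The 3NC libraries were the highest and those of 8276OV the lowest, and 5NC and 8276KD overlapped. Ctnnd1 fell under knockdown (log2 difference -0.17, SE 0.0463, adjusted p = 0.00954), which was not called against 5NC (-0.040, adjusted p = 0.484). It fell under overexpression (log2 difference -0.14, SE 0.0463, adjusted p = 0.017), and further against 3NC (-0.27, adjusted p = 1.36e-04). The overexpression call was lost with quantile normalization (-0.090, adjusted p = 0.108), with median-of-ratios scaling (-0.045, adjusted p = 0.393), without 5NC replicate 2 (-0.10, adjusted p = 0.0895) and without 8276OV replicate 3 (-0.12, adjusted p = 0.065). It was lower in 5NC than in 3NC (log2 difference -0.13, SE 0.0463, adjusted p = 0.0252), a call lost without 3NC replicate 1 or 2 or 5NC replicate 1 or 3 (adjusted p from 0.0521 to 0.124).

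Ssx2ip encodes ADIP, a protein that binds afadin and α-actinin at adherens junctions and also works at centrosomes (gene ID 99167, chromosome 3, 146404642 to 146440144). Its level was 18.7, 17.99 and 17.7 in 3NC, 25.3, 23.5 and 24.99 in 8276KD, 26.1, 27.01 and 26.2 in 5NC and 28.2, 25.6 and 27.1 in 8276OV. The 3NC libraries lay below all others, 8276KD lay below 5NC and 8276OV, and these last 2 groups overlapped. Ssx2ip rose under knockdown from 18.1 ± 0.485 to 24.6 ± 0.951 (log2 difference 0.42, SE 0.0501, adjusted p = 2.73e-05), the largest rise of a member in that comparison. It was also higher in 5NC than in 3NC (log2 difference 0.52, SE 0.0501, adjusted p = 1.28e-06), and against 5NC the 8276KD libraries were not called (-0.10, adjusted p = 0.101). Under overexpression the difference from 5NC was 0.026 (95% interval -0.081 to 0.13, adjusted p = 0.645), but -0.10, adjusted p = 0.0313 after GC correction and 0.55, adjusted p = 4.44e-07 against 3NC.

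**Figure D3:**
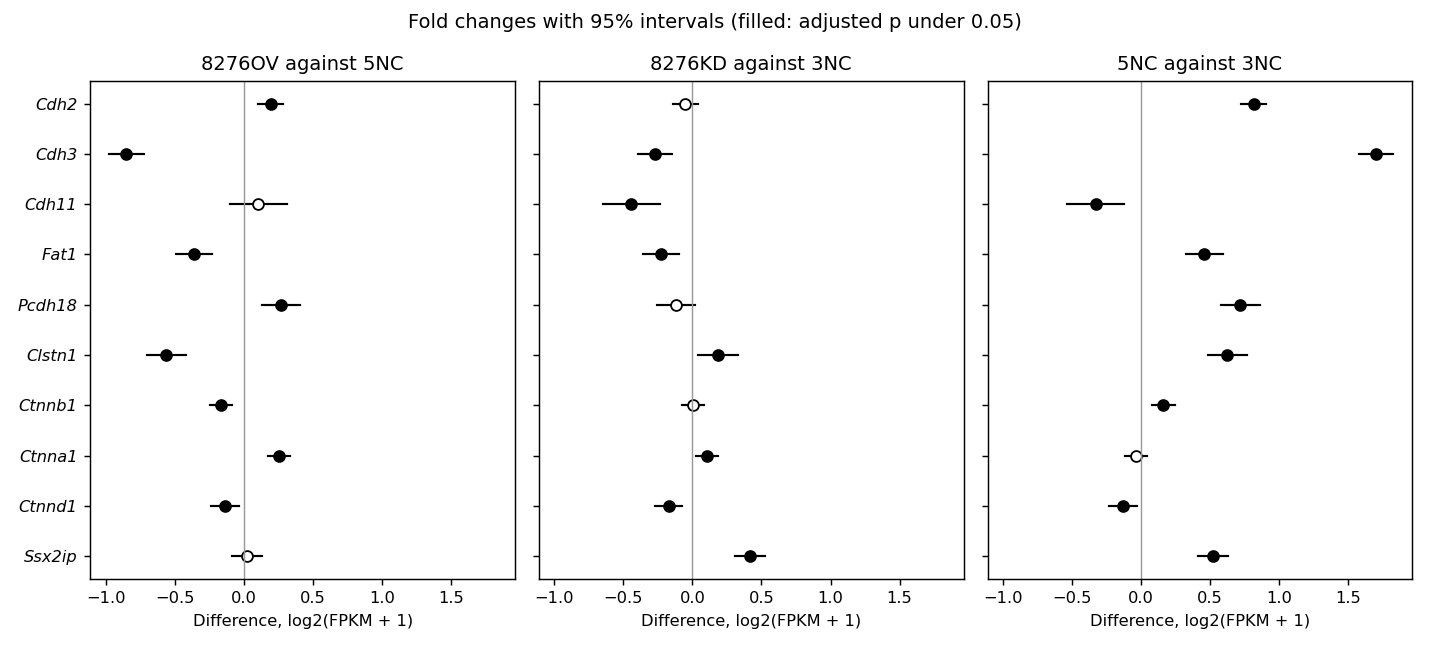
Difference in log2(FPKM + 1) for the 10 genes in 3 comparisons, each of 3 libraries against 3, with 95% intervals from the joint fit; filled points have an adjusted p under 0.05. The right panel, 5NC against 3NC, holds the widest difference, 1.70 for Cdh3.

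The groups did not overlap for 8 of 10 members in 8276OV against 5NC, 7 in 8276KD against 3NC and 10 in 5NC against 3NC. Over all genes tested, the 3 libraries of a group all lay above or below the 3 of the other for 77.6%, 49.6% and 69.5% of genes in these comparisons. The choice of control decided direction or call for most members. With 3NC as the control of 8276OV, 5 members were higher (33.5% of all genes) and 2 lower (41.7%), where 75.2% of all genes were called. With 5NC as the control of 8276KD, 1 was higher (24.7% of all genes) and 6 lower (30.5%), where 55.3% of all genes were called. Under overexpression Cdh2, Pcdh18 and Ctnna1 were called upward and Ctnnd1 downward against either control. Of these, the call of Pcdh18 against 5NC was lost after GC correction. That of Ctnnd1 against 5NC was lost with quantile normalization and with median-of-ratios scaling. Under knockdown, Cdh3 and Fat1 were called downward and Ctnna1 upward against either control. The knockdown call of Ctnna1 against 3NC was lost with quantile normalization and without most single libraries.

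**Figure D4:**
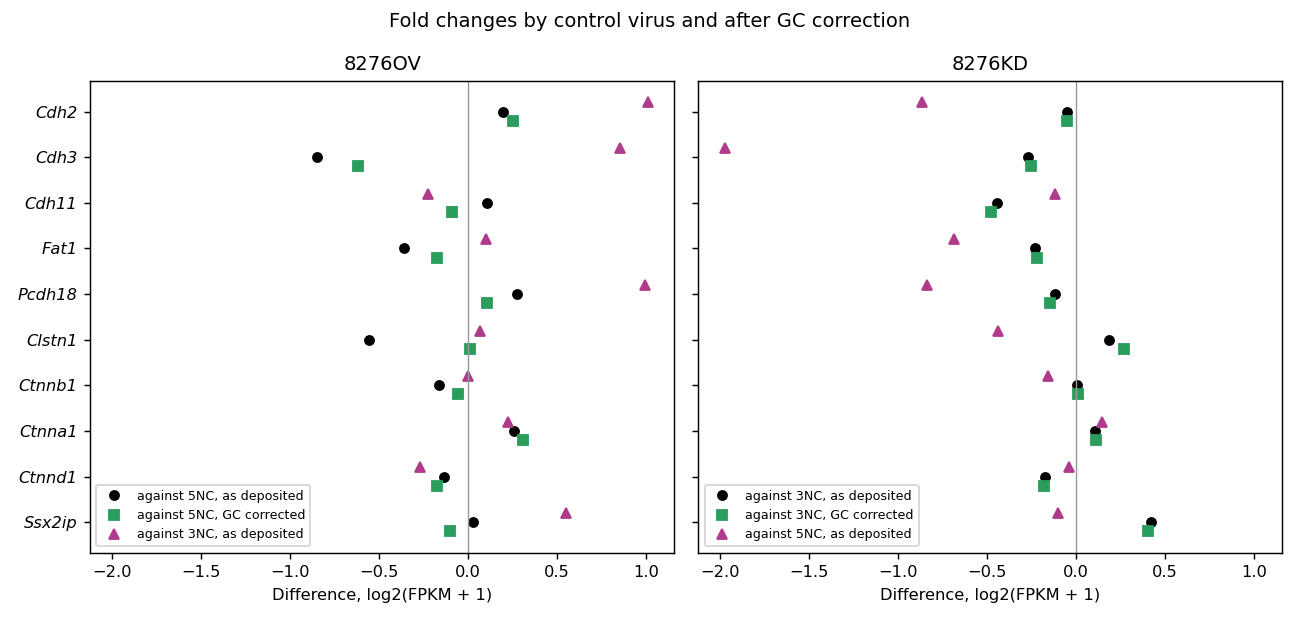
Difference in log2(FPKM + 1) of each gene in 8276OV (left) and 8276KD (right), against the paired control (circles), after GC correction (squares) and against the other control virus (triangles). For Cdh3 in 8276OV the circle lies at -0.85 and the triangle at 0.85.

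Whether the overexpression effect differed from the knockdown effect, (8276OV - 5NC) - (8276KD - 3NC), was tested in the same fit. The difference of 5NC against 3NC enters this contrast with a minus sign. That difference was 0.62 for Clstn1, 0.52 for Ssx2ip and 1.70 for Cdh3, but -0.33 for Cdh11. Effects of the manipulations and differences between the control viruses therefore cannot be told apart in the contrast. The contrast was called for 8 of 10 members, 4 upward (24.5% of all genes) and 4 downward (36.2%), against 60.6% of all genes in either direction. Without GC correction, Clstn1 was lower under overexpression and higher under knockdown and had the widest difference (-0.74, SE 0.0935, adjusted p = 3.00e-05). After GC correction it was -0.26, adjusted p = 0.00129, and the widest was then that of Ssx2ip (-0.50, adjusted p = 2.55e-06). Cdh3 fell in both arms, and by more under overexpression (-0.58, SE 0.081, adjusted p = 6.65e-05; -0.36, adjusted p = 1.03e-04 after GC correction). Cdh11 (0.55, SE 0.136, adjusted p = 0.00356), Pcdh18 (0.39, SE 0.0914, adjusted p = 0.00248; 0.25, adjusted p = 0.0252 after GC correction) and Cdh2 (0.25, SE 0.0602, adjusted p = 0.00338) had the more positive effect under overexpression. For Ssx2ip the knockdown effect was the more positive (-0.39, SE 0.0709, adjusted p = 4.16e-04). The differences of Ctnna1 (0.15, SE 0.0519, adjusted p = 0.023) and Ctnnb1 (-0.17, SE 0.054, adjusted p = 0.0165) were smaller. That of Ctnnb1 was not called after GC correction (-0.065, adjusted p = 0.334) or with median-of-ratios scaling (-0.079, adjusted p = 0.231). That of Ctnna1 was not called with quantile normalization (0.14, adjusted p = 0.0549), without 3NC replicate 2 (0.14, adjusted p = 0.055) or without 5NC replicate 3 (0.14, adjusted p = 0.0583). No difference was called for Fat1 (-0.13, SE 0.086, adjusted p = 0.211) or Ctnnd1 (0.038, SE 0.0655, adjusted p = 0.633), and that of Fat1 was called without 8276KD replicate 2 (-0.20, adjusted p = 0.0288).

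Among the 11360 genes tested, leaving out those with clone names, the profile nearest to that of Pcdh18 over the 12 libraries was that of Cdh2. The reverse held too. Likeness was taken as the root mean square difference of log2(FPKM + 1), each gene centred on its own mean, and it was 0.0652 for this pair. The 1 added before the log lessens the differences of Pcdh18, at means of 2.21 in 8276KD and 5.93 in 8276OV. It hardly changes those of Cdh2, at 49.9 and 105.0, so the likeness of this pair depends on the scale. Next to Cdh2 came Serpinb9, a serpin that inhibits granzyme B (0.088), and Tgfb2, a TGF-β ligand (0.0993), and next to Pcdh18 came Serpinb9 (0.105) and Ssbp2 (0.108). Nearest to Cdh3 were Cdsn, the corneodesmosin gene (0.123), Stc2, a stanniocalcin gene (0.132), and Chac1, a glutathione-degrading enzyme gene of the integrated stress response (0.14). Cdsn, as an example, had mean levels of 10.90 in 3NC, 10.35 in 8276KD, 39.11 in 5NC and 19.06 in 8276OV. The measure describes these 12 libraries, in which 3 at a time share a group.

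Other cadherins were mostly at low levels. Of 28 further classical and atypical cadherin genes in the table, 23 stayed below 1 in every library and 3 were tested, against medians over all genes of -0.088 under overexpression and -0.0048 under knockdown. Beside the counts of this and the following lists, 30.3% of all genes tested were called higher and 44.1% lower under overexpression, 27.8% and 27% after GC correction, and 20% and 19.5% under knockdown. Of these 3, 0 rose and 2 fell under overexpression (median -0.25; 1 and 1 after GC correction), and 1 rose and 1 fell under knockdown (median -0.20). Cdh24, a type II cadherin gene, fell under overexpression (-0.86, adjusted p = 2.84e-06), with -0.14 and an adjusted p = 0.196 after GC correction. The planar polarity gene Celsr1 fell under overexpression (-0.25) but was higher after GC correction (0.38, adjusted p = 7.12e-04), and it rose under knockdown (0.46; 0.035 against 5NC). Cdh10, another type II cadherin gene, was not called under overexpression (0.082, adjusted p = 0.281) but was lower after GC correction (-0.35, adjusted p = 2.94e-04), and it fell under knockdown (-0.40, adjusted p = 4.38e-04; -1.01 against 5NC). Without 8276KD replicate 2, all 3 of these genes were called under knockdown, 1 upward and 2 downward.

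Of 10 further protocadherins outside the clustered families, 2 were tested, of which 0 rose and 1 fell under overexpression (median -0.18; 0 and 1 after GC correction), and 1 rose and 1 fell under knockdown (median 0.22). Pcdh7 fell in both arms (-0.46 and -0.27), and Pcdh19 rose under knockdown (0.71, adjusted p = 1.43e-05; 0.47 against 5NC). Among 6 tested relatives of the catenins, 1 rose and 3 fell under overexpression (median -0.22; 3 and 1 after GC correction), and 3 rose and 0 fell under knockdown (median 0.12). Arvcf, a p120 relative, fell under overexpression (-0.74; -0.11, adjusted p = 0.0618 after GC correction) and rose under knockdown (0.33; -0.21 against 5NC). Ctnnbip1, the gene of an inhibitor of β-catenin, fell under overexpression (-0.61; -0.19 after GC correction). Ctnnal1, an α-catenin relative, rose under overexpression (0.39; 0.18 after GC correction).

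Among 23 tested genes that tie the cadherin complex to actin, 3 rose and 14 fell under overexpression (median -0.17; 6 and 11 after GC correction), and 8 rose and 3 fell under knockdown (median 0.041). Over all genes, 30.3% rose and 44.1% fell under overexpression. Against the other control the counts were 7 higher and 7 lower in 8276OV, and 4 higher and 10 lower in 8276KD. Vasp, which promotes growth of actin filaments, fell in both arms (-0.84 and -0.56; -0.26 and -0.47 after GC correction) and lay lower against the other controls too (-0.78 and -0.63). The junction adaptor gene Ajuba fell under overexpression (-0.70; -0.093 after GC correction; 0.037 against 3NC). It rose under knockdown (0.32; -0.41 against 5NC). Sorbs3, the gene of the vinculin partner vinexin, fell under overexpression (-0.77) and rose under knockdown (0.59). With the other controls both of its directions turned (0.62 and -0.80), and it was higher in 5NC than in 3NC by 1.39.

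Of 20 tested genes of cadherin cleavage and turnover, 5 rose and 8 fell under overexpression (median -0.071; 3 and 8 after GC correction), and 4 rose and 1 fell under knockdown (median -0.047). Psen2 and Aph1a, the genes of γ-secretase subunits, fell under overexpression (-0.76 and -0.59), as did the receptor phosphatase gene Ptprf (-0.64). After GC correction these values were -0.33, -0.25 and -0.043, the last with an adjusted p = 0.438. Of 8 tested partners of ADIP at centrosomes and junctions, 2 rose and 2 fell under overexpression (median 0.030; 3 and 0 after GC correction), and 1 rose and 1 fell under knockdown (median -0.084). Bbs4, a gene of ciliary transport, rose under overexpression (0.49; 0.16 after GC correction), and under knockdown it stood at -0.13 (adjusted p = 0.22; -0.19, adjusted p = 0.0229 after GC correction). Wrap73, a centrosomal partner gene of ADIP, fell (-0.50; 0.0070, adjusted p = 0.941 after GC correction), and Nin, the ninein gene of centrosomes, rose under knockdown (0.30). The counts of these partners under overexpression fell to 1 upward without 5NC replicate 1 or 3 or 8276OV replicate 1 or 3, and to 1 downward without 5NC replicate 1 or 8276OV replicate 1 or 3.

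All 9 listed repressors of cadherin genes were tested, of which 2 rose and 4 fell under overexpression (median -0.083; 0 and 4 after GC correction), and 0 rose and 4 fell under knockdown (median -0.21). Twist1, a transcription factor gene of mesenchymal cells, fell in both arms (-0.61 and -0.38), with 0.044 (adjusted p = 0.633) under overexpression after GC correction. Its relative Twist2 also fell in both arms (-0.79 and -0.42; -0.53 and -0.39 after GC correction). Tcf3, the gene of the E proteins E12 and E47, fell under overexpression (-1.03; -0.31 after GC correction).

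Of 12 tested genes for degradation of β-catenin, 0 rose and 6 fell under overexpression (median -0.16; 0 and 6 after GC correction), and 3 rose and 2 fell under knockdown (median 0.080). The scaffold gene Axin1 and the kinase gene Gsk3a fell under overexpression (-0.56 and -0.69), and after GC correction neither was called (-0.040, adjusted p = 0.365, and -0.020, adjusted p = 0.646). Ppp2r5a, a PP2A subunit gene, fell under overexpression (-0.54; -0.54 after GC correction) and rose under knockdown (0.35; -0.13 against 5NC). The 2 genes of this list that fell under knockdown became 1 without any of its 6 libraries other than 8276KD replicate 2. Of 13 tested TCF, LEF and Wnt target genes, 1 rose and 6 fell under overexpression (median -0.13; 5 and 2 after GC correction), and 1 rose and 3 fell under knockdown (median -0.15). Without 8276KD replicate 2 the genes of this list that fell under knockdown numbered 5. The one that rose under overexpression was Cd44, the gene of a hyaluronan receptor (0.71; -0.69 against 3NC), which fell under knockdown (-0.37; 1.02 against 5NC) and had a difference of -1.39 in 5NC against 3NC. The β-catenin cofactor gene Bcl9l fell under overexpression (-0.86; -0.18 after GC correction), as did the TCF factor gene Tcf7 (-0.39; -0.14 after GC correction).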

How the data were processed

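The libraries were RNA-seq of C18-4 cells, 12 in 4 groups of 3. The deposited table holds 17576 genes with 1 value per library, read here as FPKM computed by the authors, because sums of value times transcript length varied less between libraries (CV 1.09%) than column sums did (CV 1.62%). Per the submitters' processing notes the genome build was mm10; no label names the aligner or annotation. Values were taken as log2(FPKM + 1), 11360 genes with a value of 1 or more in 3 or more libraries were kept, and limma 3.58.1 in R 4.3.3 was fitted jointly to all 12 libraries with a mean per group, trend and robust moderation and 8 residual degrees of freedom. P-values were adjusted by Benjamini-Hochberg over the 11360 genes, and those under 0.05 were called. The code was tested on simulated data.

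GC content came from the longest annotated transcript (98.57% of tested genes), and the correction removed a spline of 5 degrees of freedom per library. Alternatives were a pseudocount of 0.1, filters, quantile and median-of-ratios scaling, the GC correction, a replicate block, fits of the compared groups only, each library left out, and the other control. All 10 members are named. From each list, up to 3 genes with the smallest adjusted p in either manipulation are named. For the 3 members of widest span the 3 nearest profiles are named, clone names left out. Members and lists were chosen with earlier results of these data known. Promoter windows came from RefSeq, were matched by symbol and were used for 6 of 10 members. Those listed for Fat1 (chr8:44949958-44950257) and Clstn1 (chr4:149586218-149586517) lie inside the genes as annotated here, and neither is shown. Cdh3 and Cdh11 have no window here. Windows on chromosome 18, where Cdh2 and Ctnna1 lie, were left out and are not shown. The depth of the libraries is unknown, so no counting intervals are given.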

Additional observations from a re-analysis of the deposited data

How the results depend on the processing

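The scale of log2(FPKM + 1) understates changes of low members, here Cdh11 and Pcdh18, and depth is unknown. The counts of members per direction stayed within 1.5 times of those reported except as follows. With 3NC as the control of 8276OV 5 members were higher and 2 lower, and with median-of-ratios scaling 3 were lower under overexpression. Under knockdown 1 member was higher with quantile normalization and 1 with 5NC as control, and between the control viruses 1 was lower with the stricter filter of 5, under which Cdh11 is not tested. Leaving out each library in turn gave 1 to 2 members higher under knockdown and 1 to 2 lower in 5NC against 3NC. It also gave log2 differences of -0.0063 to 0.062 for Ssx2ip under overexpression, -0.014 to 0.027 for Ctnnb1 under knockdown and -0.0017 to 0.072 for Ctnnd1 in the difference between the effects, so the sign of these uncalled values is not fixed.

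Signs turned mainly with the control and the GC correction, and the cause was not tested. Under overexpression against 3NC, Cdh3 stood at 0.85, Cdh11 at -0.22, Fat1 at 0.10, Clstn1 at 0.065, Celsr1 at 0.18, Ajuba at 0.037, Sorbs3 at 0.62 and Cd44 at -0.69. Against both controls together Cdh3 stood at 0.0016 and Cdh11 at -0.060. After GC correction, with or without the replicate block, Cdh11 stood at -0.088, Clstn1 at 0.010, Ssx2ip at -0.10, Celsr1 at 0.38, Twist1 at 0.044 and Wrap73 at 0.0070, and Fat1 at 0.041 in the difference between the effects. Under knockdown against 5NC, Clstn1 stood at -0.44, Ctnnb1 at -0.16, Ssx2ip at -0.10, Arvcf at -0.21, Ajuba at -0.41, Sorbs3 at -0.80, Aph1a at -0.060, Ppp2r5a at -0.13 and Cd44 at 1.02. Against both controls together Clstn1 stood at -0.13, Ctnnb1 at -0.078, Ajuba at -0.046, Sorbs3 at -0.10 and Cd44 at 0.33, and with quantile normalization Ctnnb1 stood at -0.074. Over all genes under overexpression, 3447 were called higher and 5005 lower, against 4428 and 3997 with quantile normalization, 4168 and 4284 with median-of-ratios scaling, and 3115 and 3020 after GC correction. With 5NC as the control of 8276KD, 3470 genes were lower, against 2210 with 3NC.

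Replicate numbers did not pair the libraries as a whole. Deviations from the group means correlated at over 0.1 for 2 of 18 same-numbered pairs (r from -0.25 to 0.59). These 2 were replicate 1 of 8276KD with that of 8276OV (r = 0.47) and replicate 2 of both (r = 0.59), so these libraries shared a deviation. For replicate 3 of both, r was 0.029. Between libraries of unlike number r ranged from -0.60 to 0.36, highest for replicate 3 of 8276KD with replicate 1 of 8276OV. Of 12 libraries, 4 correlated best with their own number. With the replicate block the genes called numbered 8407 in 8276OV against 5NC, 4434 in 8276KD against 3NC and 6380 in 5NC against 3NC, and no call of a member changed.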

Other observations

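β-catenin transcripts were more abundant per length than those of Cdh2, Cdh3 and Cdh11 together in every library. The level of Ctnnb1 divided by the summed level of Cdh2, Cdh3 and Cdh11 was 3.01 ± 0.0585 in 3NC, 3.31 ± 0.0453 in 8276KD, 1.58 ± 0.0376 in 5NC and 1.57 ± 0.0572 in 8276OV (SD, n = 3). The same ratio for Ctnnd1, whose product binds the cadherin tail beside β-catenin, was 0.753 ± 0.011 in 3NC, 0.732 ± 0.0396 in 8276KD, 0.322 ± 0.0147 in 5NC and 0.325 ± 0.00825 in 8276OV. Both ratios were higher in every library of 3NC and 8276KD than in every library of 5NC and 8276OV. The ratio of Ctnnb1 to Ctnna1, the catenins that bind each other, was 1.311 ± 0.0277 in 3NC, 1.218 ± 0.0102 in 8276KD, 1.504 ± 0.0143 in 5NC and 1.121 ± 0.0206 in 8276OV. No groups overlapped in this ratio, and 8276OV was lowest. The ratio of N-cadherin to P-cadherin transcripts, Cdh2 to Cdh3, was 2.65 ± 0.077 in 3NC, 3.12 ± 0.27 in 8276KD, 1.39 ± 0.00714 in 5NC and 2.92 ± 0.278 in 8276OV. These ratios were computed from members chosen by name with earlier results of these data known, and were not tested.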
